A study of Rattus norvegicus with 15 samples.

Results

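An interval of rat chromosome 1, from 60 Mb to 90 Mb on the rn4 assembly, was examined for DNA methylation in peripheral blood. Its members were found by position: array probes inside the interval were joined into a run when the gap between neighbours was at most 500 bp, and a run counted as a region if it had 3 or more probes. This gave 461 regions with 4087 probes, out of 16784 regions on the whole array. The interval itself was chosen by measured values, namely the high rank of some of its regions in several comparisons between the groups. The differences between groups given here are therefore a description and support nothing by themselves. Levels averaged over all arrays were not used to choose it. The choice also called the interval gene-dense; this was not checked, because the files give probe positions without gene names, and so no gene is named for a region.

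Blood came from male Sprague Dawley rats aged 20 weeks, 3 rats in each of 5 groups, with 1 array for each rat. Control rats were injected with citrate buffer and given distilled water. The 4 other groups were all made diabetic with streptozotocin at 45 mg/kg, which destroys the pancreatic cells that make insulin. The diabetic retinopathy model (DR model) then received distilled water with no insulin named. CaD rats received calcium dobesilate, a drug used in diabetic retinopathy, at 0.25 g/kg per day together with insulin at 1.5 IU per day. LTF rats received Luo-tong formula, the herbal mixture of the study's title, at 2 g/kg of herb per day with the same insulin. A further group received another herbal formula, for which the labels used here state neither dose nor insulin. In CaD and LTF rats, treatment and insulin cannot be told apart. Whole blood mixes cell types, and a change in the methylation of a cell cannot be told apart from a change in the mix of cells. The identity of the tissue could not be checked, since methylation arrays without gene names hold no cell markers.

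In methylated DNA immunoprecipitation (MeDIP) an antibody against methylated cytosine pulls down DNA fragments, which are compared with untreated input DNA from the same sample. Methylation of cytosine in CpG dinucleotides is a chemical mark on DNA that is often low at active promoters and high over silent or repeated sequence. A MeDIP signal depends on how many CpG sites a fragment holds as well as on how many are methylated, so it shows enrichment and not a percentage of methylation. Values are log2 of the MeDIP signal (Cy5 dye) over the input signal (Cy3 dye), centred on the median probe of each array, and a region's level is the mean over its probes. A level of 0 therefore stands for the median probe of the array, not for an absence of methylation.

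Of the 461 regions, 460 had a value on all 15 arrays and entered the fit with 16322 regions from elsewhere. The one left out, chr1:69388912-69389273, has 3 probes and no usable spot on LTF replicate 3; its levels on the other arrays ran from -1.27 to -0.29. A further 47 runs in the interval, with 63 probes, had fewer than 3 probes. Runs of exactly 2 probes, just outside that limit, numbered 16 and had a median level of -0.23, and runs of exactly 3 probes numbered 14 with a median of 0.11. At the lower edge, the last region outside, chr1:59830547-59831553, had a level of -1.74 and the first inside, chr1:60139675-60141378, a level of -1.83. At the upper edge, the last region inside, chr1:89163856-89164246, stood at 0.63 and the first outside, chr1:90489660-90491422, at 0.22. Among 91 windows of 30 Mb on the autosomes, this one held the most regions, 460, followed by a window of chromosome 10 with 456.

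The arrays were not alike in quality, and the differences touch the results that follow. Per array, 80.0% to 91.5% of the interval's probes had a MeDIP signal well above background, and 93.8% to 97.5% had such an input signal. Spots marked as outliers by the scanner software were left out array by array. In the interval they numbered 192 to 273 on the LTF arrays and 2 to 129 on all others. The interquartile range of the 460 levels was 0.84 to 0.97 in controls, 0.66 to 0.94 in the DR model, 0.68 to 0.70 with CaD, 0.67 to 0.76 with the other formula and 0.77 to 0.81 with LTF. DR model replicate 3 was the narrowest of all, at 0.66, against 0.90 and 0.94 for the other arrays of its group. It shared a scan with CaD replicates 1 and 2, and for the treated groups counts of called regions are also given without it. The LTF arrays were scanned together and with no other group, so LTF and scan cannot be told apart. The other formula arrays shared their scan only with CaD replicate 3. No control array shared a scan with a treated array, and DR model replicate 3 was the only untreated array that did. Comparisons of treated with untreated arrays can therefore not be fully told apart from scan, nor can that of diabetic rats with controls. Pairs of arrays correlated at 0.93 to 0.99 over the 460 levels.

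The interval's median level was 0.01, against -0.04 for all other regions, but that median joins unlike stretches. From 60 Mb to 65 Mb the median of 52 regions was -0.67. From 65 Mb to 70 Mb, with 71 regions, it was -0.19, and from 70 Mb to 75 Mb, with 52 regions, it was -1.13. Beyond 75 Mb the next 3 bins, of 100, 109 and 76 regions, had medians of 0.12, 0.13 and 0.21. The bin from 80 Mb to 85 Mb held the most regions, and the bins from 60 Mb to 65 Mb and from 70 Mb to 75 Mb the fewest. Taken as a pair of blocks, with 75 Mb as a boundary chosen after the levels were seen, the lower block of 175 regions had a median of -0.61 with 25.1% of its regions above 0. The upper block of 285 regions had a median of 0.16 with 66.3% above 0.

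The first Mb above the boundary, with 3 regions, is itself low, at -1.24, and the Mb from 76 Mb, with 14 regions, stands at 0.03. The last bin below the boundary was lower than the upper block on every array. The median from 70 Mb to 75 Mb lay below the median from 75 Mb to 90 Mb on all 15 arrays, by -1.65 in control replicate 3 at one end to -0.96 in CaD replicate 2 at the other. Controls had the largest difference on average, -1.48 ± 0.16 (SD, n = 3), followed by the DR model at -1.34 ± 0.16 and the other formula at -1.21 ± 0.05. LTF rats, at -1.16 ± 0.15, and CaD rats, at -1.12 ± 0.15, had the smallest. The arrays of neighbouring groups in that order overlapped. The level from 70 Mb to 75 Mb, -1.13 here, depends on the processing. It was -0.38 with normexp background correction and -0.57 after each array's mean at the same probe length was subtracted. The difference from the upper block was not computed under these settings.

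**Figure D1:**
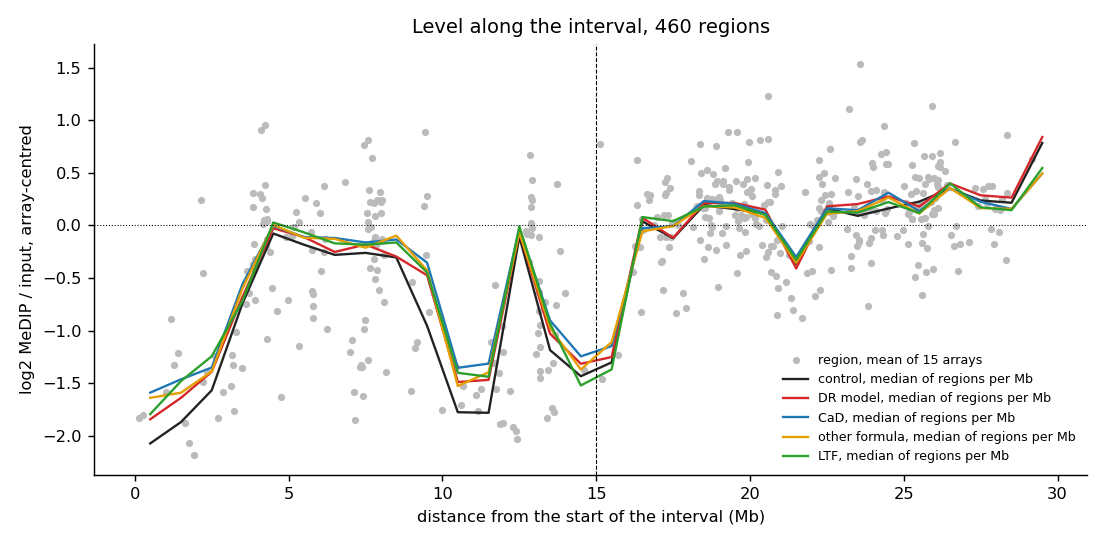
Level along the interval. The x axis is the distance from the interval's start in Mb and the y axis the log2 ratio of MeDIP over input; grey points are the 460 regions averaged over 15 arrays, lines are group medians of the regions in each Mb, and the dashed line marks 15 Mb, which is 75 Mb on the chromosome. Levels are low and uneven before the dashed line, where 25.1% of regions lie above 0, and 66.3% of the regions after it lie above 0, and the control line lies lowest in most of the deep troughs.

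The low stretches were not continuous. The deepest Mb was the one that starts at 60 Mb, with 3 regions and a median of -1.81, followed by those that start at 61 Mb (6 regions, -1.60), 70 Mb (3 regions, -1.53) and 71 Mb (12 regions, -1.48). Between them, levels came close to the median probe: -0.05 in the Mb from 64 Mb (20 regions) and -0.17 in the Mb from 67 Mb, which held 32 regions. The Mb from 72 Mb, with 15 regions and a median of -0.05, stood between neighbours at -1.48 and -1.02. In the upper block, the Mb from 81 Mb (10 regions, -0.37) was the lowest after its first. Levels of neighbouring regions went together more closely in the interval than elsewhere, with a Spearman correlation of 0.46 over 459 pairs against 0.32 over 16300 pairs; median gaps were 30431 bp and 49032 bp, and neighbours share arrays and can share base composition.

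Probe length differed along the interval in step with the levels. As background, array designs that aim at equal melting temperatures use longer probes where sequence is poor in G and C. Mean probe length was 51.9, 50.1 and 53.2 nucleotides in the 3 bins below 75 Mb and 47.2, 47.3 and 46.9 in those above. Within classes of similar probe length, regions of the lower block were still lower than those outside the interval, except at 46 to 50 nucleotides. With a mean length of 55 to 60 nucleotides, 45 regions of the lower block had a median of -1.49, against -1.06 for 1325 regions outside the interval. With 50 to 55 nucleotides the medians were -0.89 (63 regions) and -0.41 (3990 regions), and with 46 to 50 nucleotides they were 0.04 (54 regions) and 0.04 (8601 regions). With 45 to 46 nucleotides they were 0.11 (13 regions) and 0.32 (2406 regions). In the upper block the class of 50 to 55 nucleotides had a median of -0.44 (22 regions). MeDIP signal was well above background for 82.8% of probes per region in the lower block and 92.5% in the upper, while for input it was 95.2% and 96.0%.

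The extremes show the range. The highest level was at chr1:83565756-83567435, a region of 10 probes with a mean of 1.54. Arrays stood at 1.63, 1.58 and 1.89 in controls, 1.75, 1.78 and 1.43 in the DR model, 1.49, 1.47 and 1.38 with CaD, 1.46, 1.32 and 1.41 with the other formula and 1.56, 1.55 and 1.41 with LTF, so all groups were far above the median probe. Next came chr1:80572187-80572843 at 1.23 and chr1:85912121-85913624 at 1.13, the latter with 1.57 and 1.72 on DR model replicates 1 and 2 and 0.86 to 1.43 on all other arrays. The lowest levels were at chr1:61933404-61934587 (-2.19), chr1:61771688-61773225 (-2.07) and chr1:72414623-72416210 (-2.03). There MeDIP signal was well above background for 74.3%, 57.5% and 86.0% of spots, in that order. The largest spread within groups, a pooled SD of 0.38, was at chr1:70593285-70594677, where DR model arrays stood at -2.35, -1.28 and -1.50. It was followed by chr1:71979766-71980513 (0.36) and chr1:71096564-71098157 (0.34), all of them among the low stretches. In these regions of large spread 76.0%, 53.3% and 35.0% of spots, in the order named, had a MeDIP signal well above background. The regions with most probes lay below the median probe: chr1:64286621-64294669, with 37 probes over 8049 bp, ran from -0.21 to -0.05 over the 15 arrays, its neighbour chr1:64278922-64286066, with 34 probes, from -0.41 to -0.11, and chr1:73170220-73176277, with 31, from -1.51 to -0.99.

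**Figure D2:**
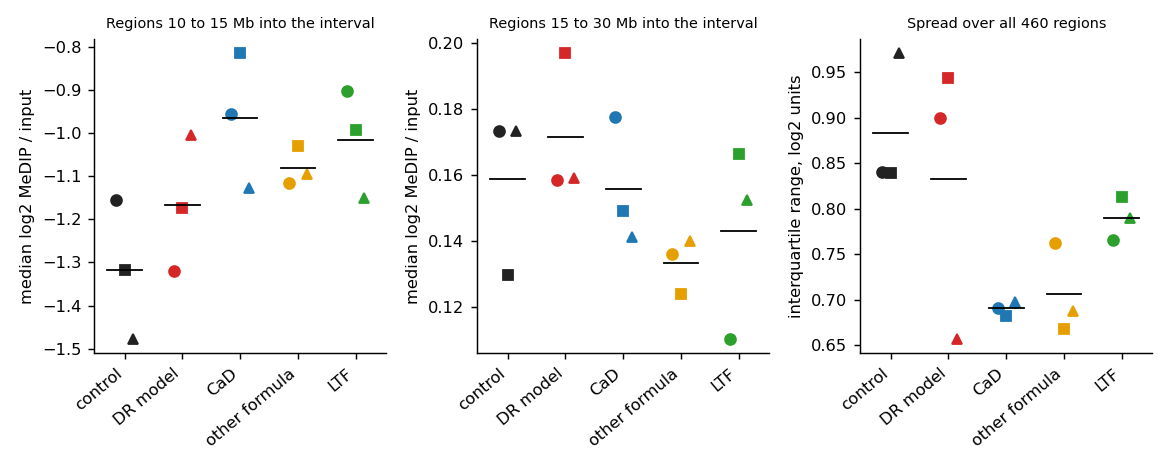
Medians and spread for each array. Points are single arrays (circle, square and triangle for replicates 1, 2 and 3), bars are group means, and the panels show the median log2 ratio of regions from 70 Mb to 75 Mb, that from 75 Mb to 90 Mb, and the interquartile range over all 460 regions. Control replicate 3 is the lowest in the first panel at -1.48, and DR model replicate 3 is the narrowest in the last at 0.66.

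Group means were farther apart in the lower block than in the upper. The median from 70 Mb to 75 Mb was -1.16, -1.32 and -1.48 on the control arrays and -1.32, -1.17 and -1.004 on those of the DR model. It was -0.95, -0.81 and -1.13 with CaD, -1.12, -1.03 and -1.09 with the other formula, and -0.90, -0.99 and -1.15 with LTF. Controls were lowest on average, at -1.32 ± 0.16 (SD, n = 3), and overlapped the DR model; CaD was highest at -0.96 ± 0.16 (SD, n = 3). All 9 treated arrays lay above control replicate 1, the highest control array, but LTF replicate 3 did so only narrowly, at -1.151 against -1.156. The upper block stood between 0.11 and 0.20 on all 15 arrays, and its groups overlapped.

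Diabetic rats of all 4 groups, averaged and set against controls, gave the most differences. limma with Benjamini-Hochberg adjustment over all 16782 regions called 63 of the 460 regions at an adjusted p under 0.05, 49 of them higher and 14 lower in diabetic rats. Over all regions tested, 8.71% were called, 6.35% higher and 2.36% lower. Nothing is read from the interval's share here or in the other comparisons, since all of them may have taken part in its choice. All diabetic arrays lay on one side of all control arrays in 25 regions, 20 of them higher, where 3.51% of all regions did so, 2.54% higher and 0.965% lower. The higher calls lay mostly in the lower block: 39 of 49, with 11, 13 and 15 in its 3 bins, while the upper block held 10 of the higher and 11 of the 14 lower ones. The mean of the 4 groups includes the treated rats, so a call need not be a difference of the DR model. Among the 14 lower calls are chr1:67456312-67457417, chr1:76513343-76514065 and chr1:79576039-79576560. There the DR model differed from control by -0.14, 0.12 and 0.12 in that order, and was not called. In the lower block 132 of 175 regions had a higher level in diabetic rats (median difference 0.12), and in the upper block 131 of 285 (median -0.01). Outside the interval 9281 of 16322 regions did (median 0.02). The regions called higher were low ones: the 49 had a median level of -1.11 and a median probe length of 53.8 nucleotides. The 14 called lower had a median level of 0.25 and 46.8 nucleotides. Outside the interval, 1017 regions called higher had -0.70 and 52.1 nucleotides, and 382 called lower 0.37 and 47.2. Of the regions there with 55 to 60 nucleotides 24.1% were called, against 10.1% with 50 to 55 and 6.43% with 46 to 50. Control arrays also had the widest spread of levels on average, as given above, and its part in these differences was not tested. With quantile normalization, which gives all arrays the same spread, 27 regions were called, 17 higher and 10 lower, where all regions gave 3.34%. With scan as a random block 16 were called (1.69% of all regions), without control replicate 3 there were 12 (1.63%), and without DR model replicate 2 there were 88 (15.2%). Within the first scan day, with 1 control array, 0 were called by limma, where all regions gave 0.215%, and 76 had an unadjusted p under 0.05; with all arrays 156 did, where all regions gave 27.9%. With only probes that had a value on all arrays, 57 of the 63 were called.

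Each channel was also looked at alone. For the 49 regions that were higher in diabetic rats, the ratio differed by a median of 0.36, the MeDIP signal by -0.001 and the input signal by -0.29. Input was lower in diabetic rats in 43 of the 49, and in 105 of all 175 regions of the lower block. MeDIP was higher in 24 of the 49. For the 14 regions that were lower, the medians were -0.25 for the ratio, -0.08 for MeDIP and 0.21 for input; MeDIP was higher in 2 of them and input lower in 1. Outside the interval, 1017 regions called higher had medians of 0.32 for the ratio, 0.11 for MeDIP and -0.16 for input, with input lower in 737 and MeDIP higher in 707. An effect common to both channels of an array shifts both signals and cancels in the ratio, so single channels cannot be read as amounts of DNA.

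**Figure D3:**
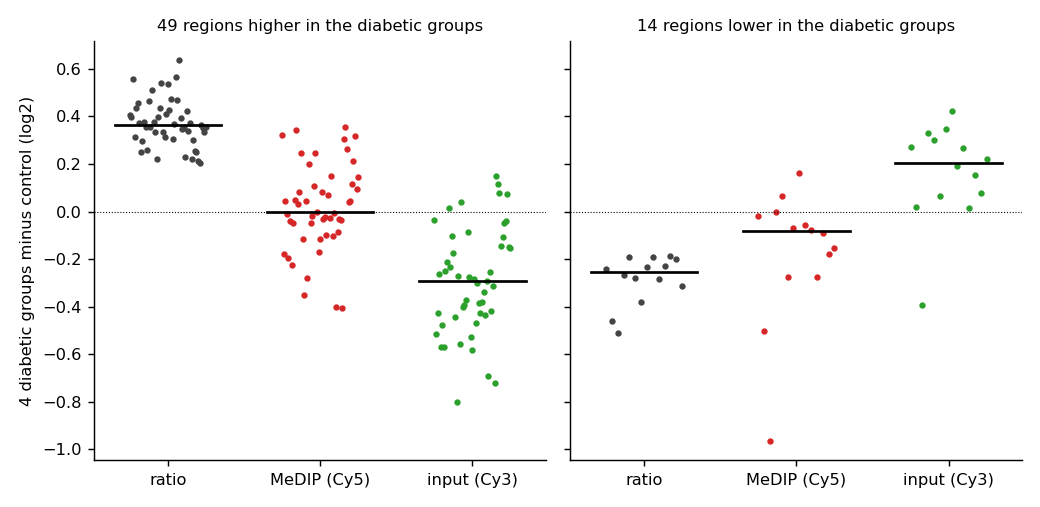
Ratio and single channels in the 63 regions that differed between diabetic rats and controls. The y axis is the mean of the 4 diabetic groups minus control in log2 units for the ratio, MeDIP (Cy5) and input (Cy3); each point is a region, in order of position within a column, and bars are medians. For the 49 higher regions the MeDIP points scatter around 0 (median -0.001) and the input points lie mostly below it (median -0.29).

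Some called regions had called neighbours, and the share of these over all regions was not counted. Levels of neighbouring regions went together, as given above, so the regions of a run are not separate observations. Runs of 5 neighbouring regions, all higher in diabetic rats, spanned chr1:68175308-69171931 (differences of 0.31 to 0.54) and chr1:71159226-71715451 (0.31 to 0.57). The tightest run held 4 regions within 33757 bp, chr1:73149977-73183733, with differences of 0.23 to 0.42, and included the region of 31 probes named above. A run of 3, chr1:77664103-77915971, differed by 0.25 to 0.30.

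The regions with the smallest p whose arrays did not overlap are given singly, and they differed in which channel moved. At chr1:64625533-64627142, with 8 probes, controls stood at -1.14, -1.10 and -1.09, the DR model at -0.73, -0.78 and -0.64, CaD at -0.75, -0.71 and -0.60, the other formula at -0.72, -0.75 and -0.91, and LTF at -0.77, -0.70 and -0.77. Every diabetic array was above every control array, and the 4 diabetic groups overlapped one another. The difference was 0.37 ± 0.05 (SE; limma adjusted p = 0.0030), with 0.34 in MeDIP and 0.01 in input, and 6 of 8 probes had the same direction. With normexp background correction the difference was 0.14 and was still called. At chr1:62224553-62225401, with 6 probes, controls stood at -1.79, -1.90 and -2.13 and the 12 diabetic arrays between -1.58 and -1.22. The difference of 0.56 ± 0.08 (SE; limma adjusted p = 0.0030) came with 0.05 in MeDIP and -0.42 in input, and all 6 probes were higher.

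Controls were the high group in a pair of regions. At chr1:72884367-72884730, with 3 probes, controls stood at 0.23, 0.29 and 0.43 and the diabetic arrays between -0.43 and 0.01. The difference was -0.51 ± 0.09 (SE; limma adjusted p = 0.0065), with -0.96 in MeDIP and -0.39 in input, and all 3 probes were lower. At chr1:79678319-79679565, with 7 probes, controls stood at 0.14, -0.01 and -0.05, the DR model at -0.17, -0.22 and -0.23, and the treated arrays between -0.53 and -0.29. The groups followed one another without overlap from control to DR model to treated. This difference, -0.38 ± 0.06 (SE; limma adjusted p = 0.0032), went with -0.07 in MeDIP and 0.35 in input; it lost its call in 4 of 13 other settings. It was -0.05 with normexp background correction and -0.10 over probes with input well above background on all arrays.

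The DR model alone against control, which asks what untreated diabetes changes, gave 0 calls in the interval and 0 over all regions (0%) in limma. At an unadjusted p under 0.05 there were 72 in the interval and 2134 in all (12.7%). Arrays of the groups did not overlap in 67 regions, 51 of them higher and 16 lower in the DR model, where 11.5% of all regions did so, 8.47% higher and 3.04% lower. Loess within arrays gave 16 calls, all higher, where 1.49% of all regions were called. There were 3 without control replicate 1 (0.232% of all regions) and 3 without DR model replicate 2 (0.167%). The differences of the 4 regions with the smallest p ran from -0.51 to 0.51, with limma adjusted p between 0.10 and 0.11. At chr1:81943610-81945323, with 11 probes, the DR model was the low group: controls stood at 0.17, 0.05 and 0.15, the DR model at -0.21, -0.10 and -0.13, and CaD at 0.11, 0.14 and 0.00. The other formula stood at 0.07, 0.04 and 0.01 and LTF at -0.01, -0.12 and -0.02. CaD and the other formula overlapped the controls and lay above all DR model arrays, and LTF overlapped the DR model. The DR model differed from control by -0.27 ± 0.06 (SE) and CaD from the DR model by 0.23 ± 0.06 (SE), with limma adjusted p of 0.11 and 0.18.

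The 3 treated groups were each compared with the same DR model arrays, so a high or low array there enters all of them. limma called 0 regions for CaD and 0 for the other formula, in the interval and over all regions (0%). At an unadjusted p under 0.05 there were 73 in the interval for CaD, where all regions gave 15%, and 68 for the other formula, where they gave 15.1%. Non-overlapping arrays were found in 77 regions for CaD (24 higher, 53 lower), where all regions gave 16.4%, with 6.65% higher and 9.79% lower. They were found in 81 for the other formula (18 higher, 63 lower), where all regions gave 18.6%, with 5.57% higher and 13% lower. Regions with a higher level than in the DR model, called or not, numbered 126 of 175 in the lower block and 115 of 285 in the upper with CaD, 103 and 103 with the other formula, and 94 and 106 with LTF. Outside the interval they numbered 8477, 7196 and 7047 of 16322 regions in the same order of groups. Without DR model replicate 3, the narrow array, 42 regions were called for CaD, where all regions gave 8.51%, and 29 for the other formula, where they gave 6.76%; the comparison then rests on 2 DR model arrays that shared no scan with any treated array. Within the first scan day, which holds a single DR model array whose spread is taken from the other groups, 18 were called for the other formula (5.85% of all regions).

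LTF against the DR model gave 8 calls in limma, 1 higher and 7 lower, where 0.9% of all regions were called, 0.238% higher and 0.661% lower. Non-overlapping arrays numbered 104 (32 higher, 72 lower), against 20.3% of all regions, with 6.71% higher and 13.6% lower. At an unadjusted p under 0.05 there were 94, where all regions gave 19.4%. These 8 calls were not steady: 0 regions were called without DR model replicate 1, 0 without LTF replicate 1, 0 with scan as a random block (43 at an unadjusted p under 0.05) and 40 without DR model replicate 3, where 7.79% of all regions were called. There was 1 without DR model replicate 2, LTF replicate 2 or LTF replicate 3, and there were 2 to 4 without control replicate 2 or any single array of CaD or the other formula. Shares over all regions are not given for these counts or for the 43, and nothing is read from them about the interval. With only probes that had a value on all arrays, 2 of the 8 were called, chr1:76513343-76514065 and chr1:79576039-79576560, each with an adjusted p of 0.049, and 0.0965% of all regions were called. Of the 6 others, 3 have a value for every probe and the same difference in both fits: chr1:63827549-63828324 (-0.36), chr1:67456312-67457417 (-0.39) and chr1:85919378-85919747 (-0.37) had an adjusted p of 0.060, against 0.043 to 0.044 with all probes. The last 3 have probes without a value on some arrays.

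One of these is the region with the smallest p. At chr1:82039053-82039420, with 3 probes, the 12 arrays outside LTF stood between 0.01 and 0.25 and LTF at -0.44, -0.32 and -0.38. The difference from the DR model was -0.50 ± 0.07 (SE; limma adjusted p = 0.015). The middle probe, at 0.70 to 1.21 on the other 12 arrays, was an outlier spot on all 3 LTF arrays and had no value there. Over the remaining 2 probes the difference was -0.03. The region before it, chr1:82005624-82007298, was called at -0.38, and 2 of its 9 probes had no value on any LTF array; over its 5 probes with a value on all arrays the difference was -0.19. The single higher call, chr1:68034242-68034952, stood at 0.29 with all probes and at 0.13 over its 3 probes with a value on all arrays.

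**Figure D4:**
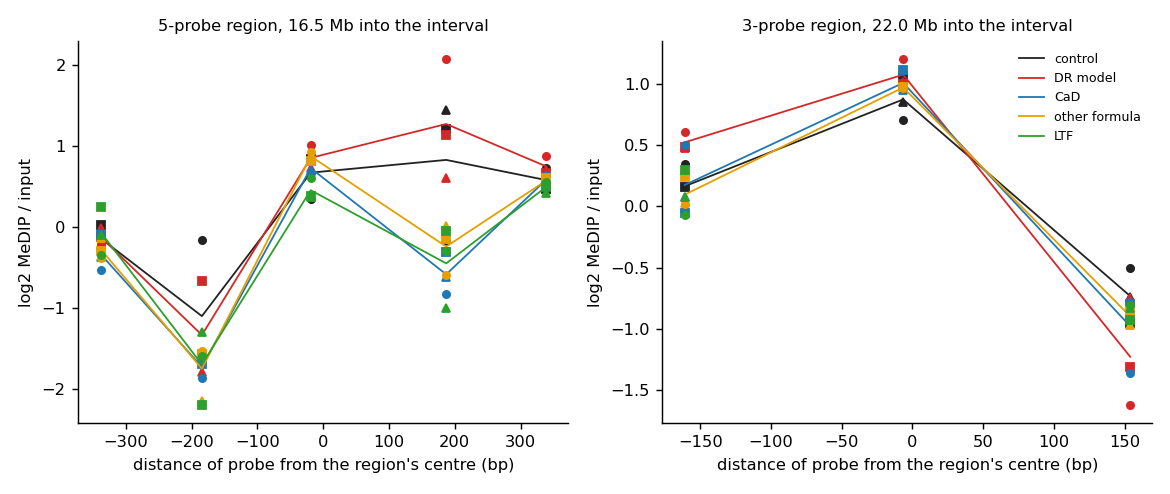
Probe values across 2 regions. The x axis is the distance of the probe from the region's centre in bp and the y axis the log2 ratio of MeDIP over input; symbols are arrays (circle, square and triangle for replicates 1, 2 and 3) and lines are group means. On the left, chr1:76513343-76514065, the groups part mostly at the probe 187 bp from the centre; on the right, chr1:82039053-82039420, the middle probe has no LTF value.

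A set of 4 regions had a p among the lowest 1% of all regions in 3 or more of the 5 comparisons, where 38 of all 16782 regions did (0.226%). It was such regions that led to the choice of the interval, and 3 of the comparisons share the DR model arrays. They shared one shape: controls and DR model high, all 3 treated groups low, and DR model replicate 3 the lowest of its group. At chr1:67456312-67457417, with 6 probes, controls stood at 1.17, 1.09 and 1.14 and the DR model at 1.03, 1.18 and 0.77. CaD stood at 0.54, 0.45 and 0.56, the other formula at 0.57, 0.63 and 0.54, and LTF at 0.51, 0.62 and 0.66. No treated array reached any control or DR model array. The differences from the DR model were -0.48, -0.41 and -0.39 for CaD, the other formula and LTF, each ± 0.09 (SE), with limma adjusted p of 0.11, 0.10 and 0.044. MeDIP differed by -0.62, -0.35 and -0.41 in the same order and input by -0.11, 0.07 and -0.02. In CaD and the other formula 5 of 6 probes were lower. With scan as a fixed block, which here compares DR model replicate 3 with CaD replicates 1 and 2, the CaD difference was -0.27.

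At chr1:76513343-76514065, with 5 probes, controls stood at 0.11, 0.19 and 0.21, the DR model at 0.44, 0.37 and 0.05, CaD at -0.38, -0.16 and -0.26, the other formula at -0.21, -0.12 and -0.16, and LTF at -0.22, -0.22 and -0.32. Again all 9 treated arrays were below the 6 untreated ones. The differences from the DR model were -0.55, -0.45 and -0.54, each ± 0.09 (SE), with limma adjusted p of 0.11, 0.10 and 0.025. One probe carried most of this: for LTF its difference was -1.72, and the mean over the other 4 probes was -0.24. With normexp background correction the LTF difference was -0.08 and was not called. On that probe control replicate 1 stood at -0.17 and the other control arrays at 1.21 and 1.44. Over the region, MeDIP differed by -0.25, -0.30 and -0.34 for CaD, the other formula and LTF, and input by 0.33, 0.15 and 0.19. MeDIP signal was well above background for 70.7% of the region's spots and input for 78.7%, against 100% for both in the other regions of the set.

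At chr1:79576039-79576560, with 4 probes, controls stood at 1.09, 1.04 and 1.20, the DR model at 1.31, 1.43 and 0.96, CaD at 0.71, 0.63 and 0.71, the other formula at 0.76, 0.84 and 0.68, and LTF at 0.72, 0.76 and 0.47. The differences from the DR model were -0.55, -0.47 and -0.58, each ± 0.10 (SE), with limma adjusted p of 0.11, 0.10 and 0.034. MeDIP differed by -0.67, -0.64 and -0.46 and input by -0.09, -0.16 and 0.13. In LTF all 4 probes were lower, and without the one that changed most the mean was -0.44.

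At chr1:85919378-85919747, with 3 probes, controls stood at 0.76, 0.81 and 0.79 and the DR model at 0.95, 1.04 and 0.73. CaD stood at 0.54, 0.54 and 0.51, the other formula at 0.65, 0.46 and 0.50, and LTF at 0.54, 0.44 and 0.63. The differences from the DR model were -0.38, -0.37 and -0.37, each ± 0.08 (SE), with limma adjusted p of 0.11, 0.10 and 0.043. MeDIP differed by -0.29, -0.25 and -0.03 in the same order and input by 0.12, 0.12 and 0.34. In these 4 regions treated and untreated arrays did not overlap, and DR model replicate 3, which shared a scan with CaD replicates 1 and 2, was nearest to the treated arrays among the DR model.

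**Figure D5:**
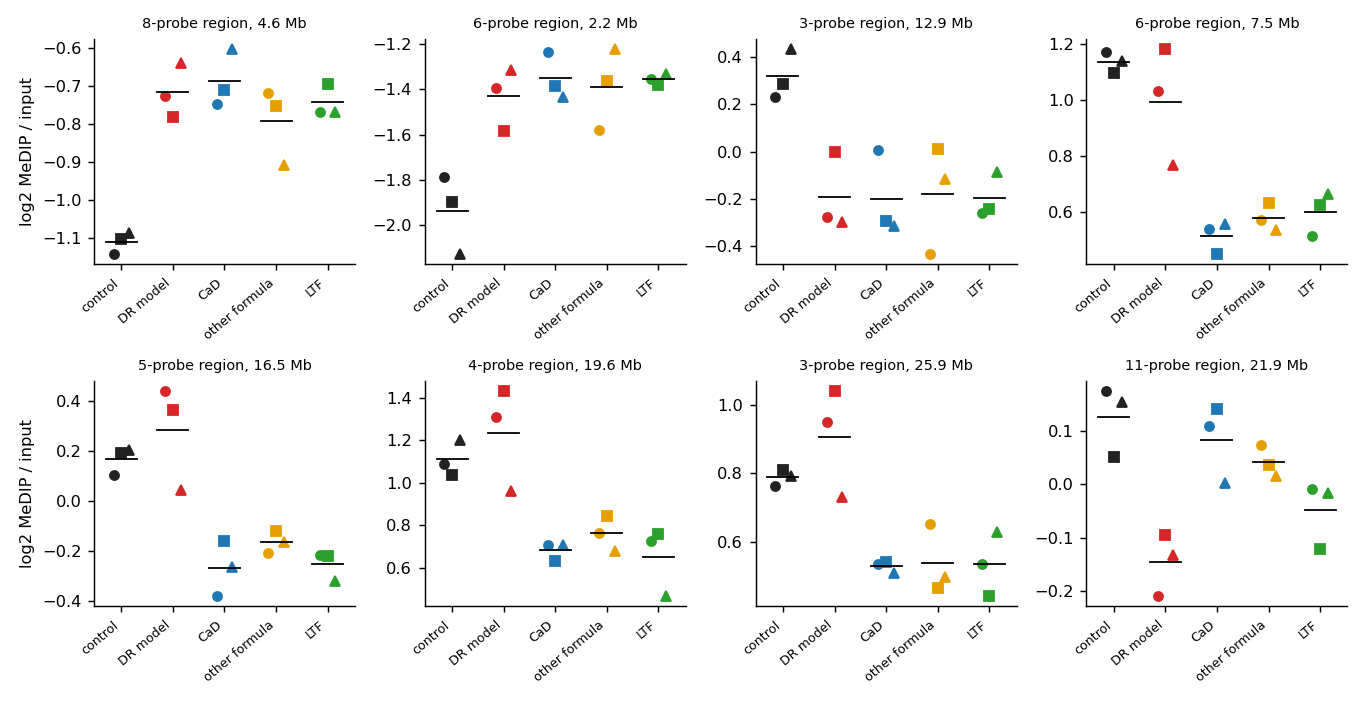
Levels of 8 regions on every array. The y axis is the log2 ratio of MeDIP over input, panel titles give the number of probes and the distance from the interval's start, points are arrays (circle, square and triangle for replicates 1, 2 and 3) and bars are group means. In the first 3 panels the 3 control arrays stand apart from all 12 diabetic arrays, in the next 4 the 9 treated arrays lie below the 6 untreated ones, and in the last the DR model is the lowest group.

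Other regions were higher in a treated group. At chr1:71585471-71587062, with 9 probes, CaD stood at -0.92, -0.82 and -0.92 and the DR model at -1.49, -1.43 and -1.03, which do not overlap. LTF stood at -0.74, -0.60 and -1.10, and its replicate 3 overlapped the DR model; controls stood at -1.41, -1.30 and -1.50. The difference from the DR model was 0.43 for CaD and 0.50 for LTF, with limma adjusted p of 0.18 and 0.061, and that of all diabetic rats from control was 0.37 (limma adjusted p = 0.029). In the same order, MeDIP differed by 0.06, 0.26 and -0.10 and input by -0.34, -0.16 and -0.38. At chr1:65772679-65774419, with 9 probes, LTF stood at 0.06, -0.06 and -0.08 and all other arrays between -0.46 and -0.13. Its difference from the DR model was 0.30 ± 0.07 (SE; limma adjusted p = 0.060), with 0.26 in MeDIP and -0.04 in input.

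Input deviated by more than 1 log2 unit from the median array in 3 of the 460 regions. At chr1:78860922-78862689 and chr1:80993816-80995445 the input of control replicate 1 was low, by -1.10 and -1.11, and that of DR model replicate 2 by -0.91 and -0.92, while LTF inputs were higher by 0.54 to 0.91. MeDIP moved with input on the same arrays, and the ratios stayed between 0.25 and 0.48 on all 15 arrays. Both of these arrays were scanned alone. At chr1:67309952-67311615 the input of control replicate 1 was high by 1.09, its MeDIP by 0.81, and its ratio, -1.62, was within the control range of -1.90 to -1.62.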

How the data were processed

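MeDIP and input DNA from the blood of 15 rats (5 groups of 3) was hybridised on 2-colour Agilent arrays. Feature Extraction 11.0.1.1 made the deposited scanner output, with rn4 coordinates, per the file headers. They hold intensity values per spot, background-subtracted and dye-normalised by the authors' software, and the authors' log10 ratio per spot, which served as a check. The deposited value table was taken as log2; what scale, centring and direction it has is not stated (correlation 0.846 to 0.886 with the scanner ratios, column medians 0.01 to 0.05). The submitters' processing notes name limma with no role.

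Here log2 of Cy5 over Cy3 was taken per probe, 6856 control spots and outlier spots were left out, and each array was centred on its median, without loess or quantile steps. Probes were averaged into regions. limma 3.58.1 (lmFit and eBayes, R 4.3.3, and the data.table package, version 1.17.8) was fitted over 16782 regions and 5 groups, with Benjamini-Hochberg adjustment; the fit was tested on simulated data. The number of arrays limits the precision. Replicates are separate rats per the labels. Single channels were taken as each probe's deviation from its median over arrays, then averaged.

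Named regions were, per comparison, the 2 with the smallest p in each direction among those with non-overlapping arrays, plus those among the lowest 1% of p in at least 3 comparisons, the 3 highest and lowest levels, the most probes, the largest SD, and the edges of the interval. Any other region that is named was chosen after its values were seen. The interval and this rule were chosen with earlier results of these data known. No sequence is printed, as no file used here holds rn4 sequence.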

Additional observations from a re-analysis of the deposited data

How the results depend on the processing

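Among the 20 differences of named regions, compared under up to 30 settings each, 498 values kept direction and side of the threshold, 42 lost a call, 24 gained one and 0 changed sign. Counts of called regions in the interval moved more. Shares over all regions are given above for some settings and are not set beside the counts here. The counts show how far calls depend on the setting, and nothing is read from them about the interval. With quantile normalization 1 region was called for CaD and 27 for diabetic rats against control. With loess 16 were called for the DR model against control and 121 for diabetic rats against control (72 higher, 49 lower), and the level from 70 Mb to 75 Mb was -0.80. With normexp background correction 1 was called for the other formula and 16 for LTF, the interval's level was 0.10 and that from 70 Mb to 75 Mb -0.38. With only probes whose input was well above background on all arrays the interval's level was 0.045. After subtraction of each array's mean at the same probe length, 4 were called for LTF and the levels were -0.029 and -0.57. With at least 5 probes in a region 4 were called for LTF. In the authors' deposited table the calls were 1 for the DR model, 4 for CaD and 1 for the other formula, with levels of 0.054 and -0.72. With scan as a random block (consensus correlation 0.390), 0 were called for LTF and 16 for diabetic rats; scan as a fixed block could not be estimated for either. Alternatives added after the data were seen were these: with probes well above background in both channels, 21 for LTF, 6 for the other formula and 1 for CaD, with levels of 0.19 and -0.66; with probes that had a value on all arrays, 2 for LTF and a level of -0.011; within the third scan day, 2 for the DR model; within the first, 18 for the other formula and 0 for diabetic rats. The cause of these shifts was not tested.

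Leaving out each array in turn gave 0 to 3 calls for the DR model, 0 to 40 for LTF, 0 to 42 for CaD, 0 to 29 for the other formula and 12 to 88 for diabetic rats. These ranges are also without the shares over all regions, and nothing is read from them about the interval. Replicate numbers only name rats: deviations of same-numbered arrays correlated at -0.42 to 0.33 over 30 pairs. With the replicate block, 3 regions were called for LTF. Below 75 Mb, MeDIP signal was well above background for 82.8% of probes per region, against 92.5% above it; the part of this in the levels was not tested.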
